A study of Mus musculus with 2 samples.

Results

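The nuclear-encoded genes of the mitochondrial respiratory chain were taken as all genes on the array whose symbol starts with Ndufa, Ndufb, Ndufc, Ndufs or Ndufv (complex I), Sdha, Sdhb, Sdhc or Sdhd (complex II), Uqcr (complex III), Cox4i, Cox5, Cox6, Cox7 or Cox8 (complex IV) or Atp5 (complex V), leaving out the assembly factors named Ndufaf. They numbered 89 of 20659 named genes, with 38 genes of complex I, 8 of complex II, 8 of complex III, 18 of complex IV and 17 of complex V. They were read by 118 probes. The symbols also admit 5 genes that are not structural subunits, the assembly factors Sdhaf1, Sdhaf2, Sdhaf3 and Sdhaf4 and the supercomplex factor Cox7a2l. Of the protein-coding genes with such symbols in RefSeq, Ndufb1, Ndufb4b and Ndufb4c were matched by no probe accession and were not analysed here. The 19 pseudogenes with such symbols were not matched either.

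The study compared retina of wild-type (WT) mice with retina of Mef2d knockout (Mef2d KO) mice, both at postnatal day 14 (P14). MEF2D, the product of the deleted gene, is a DNA-binding MEF2-family regulator, and the comparison asks which transcripts differ in the retina that lacks it. Total RNA was labelled with Cy3 and hybridised to Agilent one-colour arrays, 1 array for each genotype. The labels give neither the allele, nor the deleted part of the gene, nor the number or sex of the animals. There was thus no replicate, and no p-value is given for any difference. The number of arrays limits the precision.

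The respiratory chain passes electrons from NADH and succinate to oxygen. Complex I oxidises NADH and complex II oxidises succinate. Complex III carries electrons from reduced coenzyme Q to cytochrome c, and complex IV passes them to oxygen. Complexes I, III and IV pump protons across the inner membrane, and complex V, the ATP synthase, uses the gradient to make ATP. Most subunits are encoded in the nucleus and imported, and a core of each of complexes I, III, IV and V is encoded in mitochondrial DNA. In the retina, photoreceptors pack their inner segments with mitochondria, since the phototransduction current has a high demand for ATP.

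The hybridisation labelled Mef2d KO is called the KO-labelled array here. Spots well above background made up 75.5% of the WT array and 69.6% of the KO-labelled array. No spot was saturated. Levels are given as log2 of the processed signal minus the array's 75th percentile, and differences as the Mef2d KO level minus the WT level. The deletion was not visible at the Mef2d probes. The brighter of them read -0.091 on the WT array and 0.34 on the KO-labelled array, a difference of 0.43 ± 0.20, and the other differed by 0.14 ± 0.21. No label says whether these probes lie in the deleted part, so they do not check the genotype, and directions are those of the labels. The Xist probes were above background only on the KO-labelled array, where they read at least 51.7-fold and 26.4-fold over the WT array, so the arrays also differed in this X-linked transcript of female cells. The Y-linked Eif2s3y and Ddx3y were read on both arrays. All 8 rod markers and all 7 cone markers were well above background on both arrays, so the defining markers of the labelled tissue were present.

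The respiratory chain genes as a whole differed little between the arrays. Of the 89 genes, 87 were well above background on both arrays, Cox7b2 was so only on the KO-labelled array, and Cox8c on neither. The median difference of the 87 was 0.036, with an SD of 0.15 between genes, and the median of all 16185 genes read on both arrays was -0.0060, with an SD of 0.365. The differences of 33 members were negative (37.9%), against 51.2% of all genes. A count of 86 members lay within 1.3-fold of equality. The remaining member, Cox6a2, was 2.02-fold lower on the KO-labelled array, and no member was 1.3-fold or more higher. Among all genes, 10.3% lay 1.3-fold or more lower, 4.98% as far above, and 15.3% on either side. At the larger fold of 2, the shares were 1.74% (lower) and 0.618% (higher). The error after each difference comes from the scanner software's error model for the spots on both arrays. It leaves out the variation between animals. In whole retina, fewer cells of a type and less RNA per cell cannot be told apart.

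Most members are bright, so they were also set beside genes of like brightness. Of all genes read below the 75th percentile 23.9% were 1.3-fold apart, and of those at levels from 2 to 4 6.90% were. Of the 87 genes, 78 had a mean level of 2 or more, that is, at least 4 times the 75th percentile. Their median difference was 0.044, with an interquartile range of 0.116. The 4451 genes at that level had a median of 0.032 and an interquartile range of 0.190. None of the 78 members was 1.3-fold apart, where 3.12% of the bright genes lay 1.3-fold or more lower, 3.68% as far above, and 6.81% on either side. At 2-fold, the shares of the bright genes were 0.719% lower and 0.135% higher. Negative differences made up 27 of the 78 members (34.6%) and 39.8% of the bright genes. The members' differences thus lay in a narrower band than those of bright genes at large. Cytosolic ribosome genes, another set of abundant housekeeping transcripts, had a like spread, with an SD of 0.079 over 59 genes, against 0.093 for the 78 bright members.

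**Figure D1:**
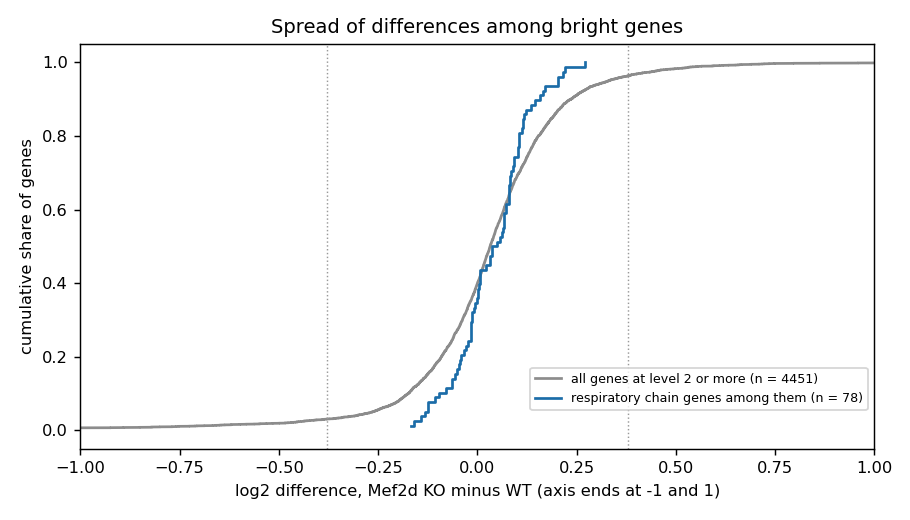
Cumulative share of genes (vertical axis) at or below each log2 difference, Mef2d KO minus WT (horizontal axis), for the 78 respiratory chain genes and the 4451 named genes with a mean level of 2 or more. The dotted lines mark 1.3-fold, and all 78 members lie between them, where 6.81% of the bright genes lie outside.

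The same retinas differed in photoreceptor transcripts, which bears on a gene set that photoreceptors use heavily. Of 8 rod markers, 4 lay 1.3-fold or more lower and 1 as far above, with a median difference of -0.23, and their summed signal was 1050 times the 75th percentile on the WT array and 871 times on the KO-labelled array. Of 7 cone markers, 3 were at least 1.3-fold lower, with a median of -0.31. Under median scaling the rod and cone medians were -0.047 and -0.13, and after quantile normalization -0.17 and -0.33. The summed signal of the 89 respiratory chain genes was 3615 times the 75th percentile on the WT array and 3687 times on the KO-labelled array. The part of the photoreceptor differences in the members' values was not tested.

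The promoters of Cox6a1, Atp5k, Ndufs3 and Ndufb4 show the kinds of regulatory letters that the set carries. Nuclear respiratory factor 1 (NRF1), ETS-family factors such as GABPA, the estrogen-related receptors (ERR) and YY1 are known regulators of respiratory chain genes. RefSeq promoter windows, from 250 bases before to 50 after the start on GRCm38.p6, were found for 73 of the 89 genes, as 78 windows. Both strands were searched for NRF1 (GCATGCGC), ETS (CCGGAAG), ERR (AAGGTCA), YY1 (AAGATGGCG) and SP-family (GGGCGGGG) letters and for the MEF2 pattern. The sequences below hold the 250 bases before the start, 5′ to 3′ on the gene's strand, which is the minus strand for each. Capitals mark an NRF1, ETS or ERR match on either strand. They were chosen, with the values known, to show each of these matches once or more, in genes whose differences are given further on. Cox6a1 (chr5:115348959-115349208) holds an NRF1 match that reads on both strands, as overlapping matches starting 162 and 160 bases before the start, and an ETS match 16 bases before it. Atp5k (chr5:108434400-108434649) holds NRF1 matches 50 and 48 bases before the start, again overlapping on opposite strands. Atp5k is also counted among the genes with ETS and ERR letters, which do not lie whole within the printed bases. Ndufs3 (chr2:90904722-90904971) holds an ETS match 27 bases before the start, and Ndufb4 (chr16:37654369-37654618) an ERR match 55 bases before it.
Cox6a1: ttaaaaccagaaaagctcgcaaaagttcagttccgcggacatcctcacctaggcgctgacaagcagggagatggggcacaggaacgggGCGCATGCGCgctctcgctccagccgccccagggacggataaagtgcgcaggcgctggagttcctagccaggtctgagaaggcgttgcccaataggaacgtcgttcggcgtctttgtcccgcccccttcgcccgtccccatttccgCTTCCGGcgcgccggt
Atp5k: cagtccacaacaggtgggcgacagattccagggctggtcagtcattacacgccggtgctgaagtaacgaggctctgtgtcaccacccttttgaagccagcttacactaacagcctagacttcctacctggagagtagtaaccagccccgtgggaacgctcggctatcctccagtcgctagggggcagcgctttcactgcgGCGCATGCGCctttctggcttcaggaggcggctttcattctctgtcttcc
Ndufs3: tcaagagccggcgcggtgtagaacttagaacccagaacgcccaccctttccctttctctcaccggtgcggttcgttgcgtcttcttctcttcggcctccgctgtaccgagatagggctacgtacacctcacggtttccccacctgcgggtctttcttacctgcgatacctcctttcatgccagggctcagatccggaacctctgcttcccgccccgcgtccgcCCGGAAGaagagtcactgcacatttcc
Ndufb4: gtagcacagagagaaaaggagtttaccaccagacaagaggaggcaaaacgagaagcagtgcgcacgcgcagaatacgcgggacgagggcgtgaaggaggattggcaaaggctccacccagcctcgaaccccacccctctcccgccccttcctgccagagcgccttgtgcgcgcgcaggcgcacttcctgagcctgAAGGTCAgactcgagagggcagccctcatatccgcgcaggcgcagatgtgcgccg

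The ETS letters were found in 20 of the 78 windows (25.6%), against 8.86% of all 32851 promoter windows. The NRF1 letters were found in 10 (12.8%, against 2.71%), the ERR letters in 8 (10.3%, against 4.72%) and the YY1 letters in 7 (8.97%, against 1.40%). The SP letters were about as frequent in the members' windows (16.7%) as in all (17.6%). The MEF2 pattern was in 0 of the 78 windows and in 3.19% of all. Cox6a2, Ndufa4l2 and Atp5mpl were among the members without a window and were not searched. A match is a description of the letters and not a shown site of binding, and the absence of the MEF2 pattern concerns these windows only.

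**Figure D2:**
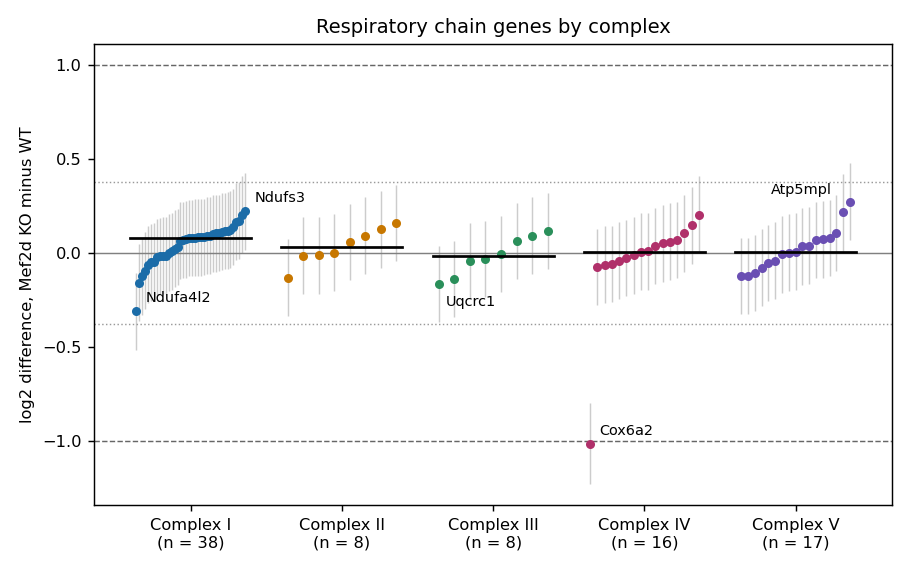
Log2 difference, Mef2d KO minus WT, of each of the 87 respiratory chain genes read on both arrays (points), ordered within each complex, with the scanner error model (grey bars) and the complex median (black line). Dotted and dashed lines mark 1.3-fold and 2-fold, and Cox6a2 is the only point beyond the dotted lines.

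Complex I genes lay mostly just above 0. By the main scaling, 27 of the 38 had a positive and 11 a negative difference (28.9% negative), with a median of 0.079. Negative differences made up 51.2% of all genes. Among genes at a mean level of 2 or more, they made up 39.8%, and the median was 0.032. No member was 1.3-fold apart. The median of complex I lay above that of all genes under all 7 scalings tried, by 0.047 to 0.085. Scalings by a constant per array keep this gap, so only quantile normalization, cyclic loess and normexp could change it. That gap is smaller than the error of any single gene, but this error does not measure the error of a median over genes. The gap was not tested. Lists of ribosomal genes had medians of like size, 0.071 for the mitochondrial and 0.060 for the cytosolic ribosome.

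The NADH-oxidising module, where electrons enter, had 7 of 8 genes above 0 and a median of 0.076. Ndufv1, the subunit that binds NADH and flavin, read 5.86 on the WT array and 5.87 on the KO-labelled array, a difference of 0.0077 ± 0.20. Ndufs1, which carries iron-sulfur clusters, read 4.59 and 4.66, a difference of 0.072 ± 0.20. Ndufa12, an accessory subunit at the junction of the peripheral arm, was among the larger positive differences of complex I, with 5.05 and 5.25 (0.20 ± 0.20).

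The module that passes electrons to coenzyme Q had a median of 0.098, with 7 of 8 genes above 0. Ndufs3, whose promoter is printed above, had the largest positive difference of complex I, with 4.84 on the WT array and 5.06 on the KO-labelled array (0.22 ± 0.20). Ndufs7, which holds the last iron-sulfur cluster before coenzyme Q, read 4.96 and 5.05 (0.092 ± 0.20). These core subunits differed by no more than about the error of the spots. Ndufs8, another iron-sulfur subunit, read 2.85 and 2.95 (0.11 ± 0.20). Ndufa5, an accessory subunit of the peripheral arm, read 5.79 and 5.96 (0.17 ± 0.20), and its other probe differed by 0.059.

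The membrane arm, which pumps protons, had 12 of 20 listed genes above 0 and a median of 0.050. Ndufb7, a small accessory subunit of that arm, read 4.96 on the WT array and 5.13 on the KO-labelled array (0.17 ± 0.20). Ndufb4, whose promoter is printed above, read 5.52 and 5.59 (0.079 ± 0.20). The lower values of complex I also came from accessory subunits. Ndufa8 read 3.20 and 3.04 (-0.16 ± 0.20), and Ndufa11 read 2.94 and 2.85 (-0.096 ± 0.20). Ndufab1, which also serves as the mitochondrial acyl carrier protein, read -1.55 and -1.67 (-0.12 ± 0.21). The lowest difference was that of Ndufa4l2, a paralogue of Ndufa4 induced in low oxygen, with 0.20 on the WT array and -0.11 on the KO-labelled array (-0.31 ± 0.20). Ndufa4 itself, now counted with complex IV by structure but placed here by its name, read 5.52 and 5.64 (0.12 ± 0.20).

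The 3 members on the X chromosome lay close to 0 on arrays that differed in Xist. Ndufa1 differed by 0.079, Ndufb11 by 0.022 and the complex IV gene Cox7b by 0.067. The other Ndufb11 probe differed by -0.13.

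**Figure D3:**
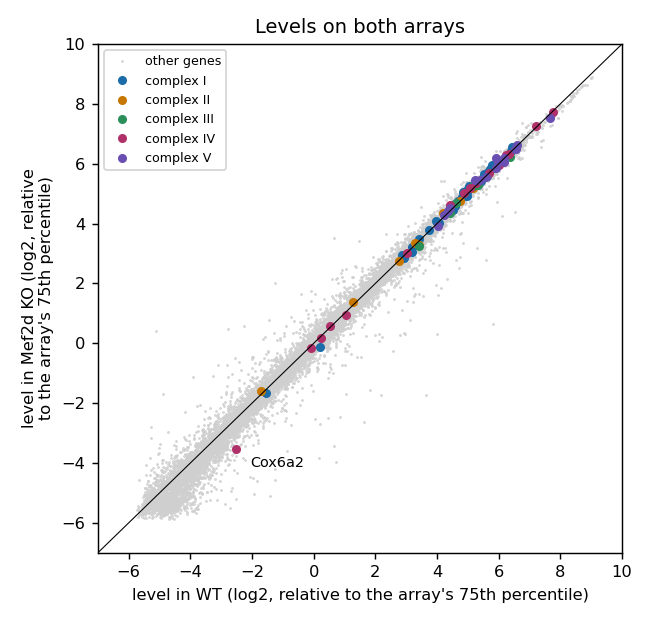
Level of each of the 87 respiratory chain genes read on both arrays, on the WT array (horizontal axis) and on the KO-labelled array (vertical axis), in log2 of the processed signal minus the array's 75th percentile, coloured by complex. All points but that of Cox6a2, at -2.52 and -3.54, lie within 1.3-fold of the line of equality. Grey points are other genes.

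Complex II, also an enzyme of the citric acid cycle, had a median of 0.029 over its 4 subunits and 4 assembly factors. The 4 subunits had a median of -0.0064. Sdha, the flavin subunit that oxidises succinate, read 4.76 on the WT array and 4.74 on the KO-labelled array (-0.014 ± 0.20). Sdhb, the iron-sulfur subunit, read 5.17 on both arrays, and its other probe differed by 0.20. The catalytic pair was therefore level between the arrays by its brighter probes. The membrane anchors lay to either side of 0. Sdhc read 3.40 and 3.27 (-0.13 ± 0.20), and Sdhd read 4.20 and 4.36 (0.16 ± 0.20). The assembly factors had a median of 0.074. Sdhaf2, which helps to attach flavin to Sdha, read 1.28 and 1.38 (0.090 ± 0.20). Sdhaf1, which assists the iron-sulfur subunit, read 3.28 and 3.34 (0.058 ± 0.20). Sdhaf3 read -1.71 and -1.59 (0.13 ± 0.21), and Sdhaf4 read 2.78 and 2.76 (-0.015 ± 0.20). None of the 8 differences was larger than its error.

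Complex III was the complex with a median below 0, at -0.020, with 5 of 8 genes negative. Its median lay below that of all genes under all 7 scalings, by 0.014 to 0.047. As for complex I, only quantile normalization, cyclic loess and normexp could change this gap. That gap was again less than the error of a gene, which is not the error of a median. The median of complex III was above 0 under median scaling, at 0.16. Uqcrc1, a core protein facing the matrix, had the lowest difference, with 3.41 on the WT array and 3.24 on the KO-labelled array (-0.17 ± 0.20). Uqcrc2, the partner core protein, read 4.61 and 4.68 (0.062 ± 0.20). Uqcrc2 was printed as 10 replicate spots, whose differences ran from -0.0050 to 0.11 with an SD of 0.029. Over 345 probes with replicate spots and well above background, the median SD between spots was 0.068. By that median, spots of 1 probe varied less than the error model allows. Uqcrfs1, the Rieske iron-sulfur protein, read 4.41 and 4.37 (-0.044 ± 0.20). Uqcrh, the hinge protein at the cytochrome c1 side, read 6.36 and 6.22 (-0.14 ± 0.20), and its other probe differed by -0.11. The small subunits were mixed. Uqcrb read 5.23 and 5.34 (0.12 ± 0.20), Uqcr10 read 5.17 and 5.26 (0.092 ± 0.20), and Uqcr11 read 5.32 and 5.28 (-0.034 ± 0.20). Uqcrq read 6.35 and 6.34 (-0.0063 ± 0.20), with 0.022 for its other probe.

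Complex IV held the single member past 1.3-fold, and its other subunits lay between -0.077 and 0.20. The median of the 16 genes read on both arrays was 0.0060. Cox4i1, the common form of the regulatory subunit IV, read 6.33 on the WT array and 6.32 on the KO-labelled array (-0.014 ± 0.20). Cox5a, a matrix-side subunit, read 6.01 and 5.95 (-0.064 ± 0.20). Cox5b, which binds zinc, read 5.07 and 5.17 (0.10 ± 0.20). The subunits that surround the catalytic core were thus close to equal. Among the small membrane subunits, Cox7a2, the common form of subunit VIIa, read 4.88 and 5.02 (0.15 ± 0.20), and Cox7b read 5.27 and 5.34 (0.067 ± 0.20). Cox7c read 4.41 and 4.61 (0.20 ± 0.20) by its representative probe. Its probes did not point the same way. The next probe read 4.42 and 4.46 (0.045), and the third read -3.06 and -3.30 (-0.24). Cox6a1, the common form of subunit VIa, read 7.76 and 7.74 (-0.027 ± 0.20).

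Isoforms made for muscle, lung or testis made up most of the lowest differences of complex IV. Over the 6 such genes read on both arrays, Ndufa4l2 included, the median was -0.069 and 5 differences were negative. The 7 common forms of the same subunits, all brighter, had a median of 0.050, with 2 negative. Under median scaling the medians were 0.11 for the isoforms and 0.23 for the common forms. Among all genes read on both arrays, the median by the main scaling was -0.078 below level 0 and 0.028 at levels from 0 to 2, where the isoforms lie. Cox6a2, the heart and skeletal muscle form of subunit VIa, read -2.52 on the WT array and -3.54 on the KO-labelled array, a difference of -1.02 ± 0.22. It was read by a single probe, well above background on both arrays. Its difference was -0.84 after median scaling, -0.88 after quantile normalization, -0.84 after cyclic loess and -0.58 after normexp background correction with quantile normalization, so the 2-fold size holds only under scaling by a percentile and in the deposited series table. Cox7a1, the muscle form of subunit VIIa, read 0.53 and 0.59 (0.059 ± 0.20). Cox8b, the muscle form of subunit VIII, read -0.10 and -0.16 (-0.060 ± 0.20). The muscle forms of the complex were thus not all lower. Cox4i2, the lung form of subunit IV, read 1.03 and 0.96 (-0.077 ± 0.20), and Cox6b2, a testis form, read 0.23 and 0.19 (-0.042 ± 0.20). The testis form Cox7b2 was well above background only on the KO-labelled array, with -5.86 and -5.53, at least 1.17-fold higher there. The testis form Cox8c was not well above background on either array.

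Markers of striated muscle and of other neighbouring tissues also differed between the arrays. Of 14 skeletal muscle markers, 10 were read on both arrays, 9 with a negative difference and 4 at least 1.3-fold lower. Among all genes with a mean level below the 75th percentile, where Cox6a2 lies, 18% lay 1.3-fold or more lower and 2.9% 2-fold or more lower. The skeletal muscle median was -0.21 by the main scaling, but -0.029 under median scaling, -0.049 after quantile normalization and -0.040 after cyclic loess. The summed signal of this list was 2.58 times the 75th percentile on the WT array and 2.39 times on the KO-labelled array. The fast muscle genes Ckm, Myh2 and Myh4 were not well above background on either array, and Mylpf was so only on the WT array. Of 11 heart and slow muscle markers, 10 were read on both, 9 with a negative difference and 4 at least 1.3-fold lower. Their median was -0.21 by the main scaling, -0.032 under median scaling, -0.18 after quantile normalization, -0.19 after cyclic loess and -0.17 after normexp. Their summed signal was 7.43 and 3.73 times the 75th percentile, but 3.11 and 2.68 times without Tnnt1, a slow muscle troponin that differed by -2.04. Another slow muscle troponin, Tnni1, differed by -1.45. Lens markers were far apart, with a median of -2.13 over the 8 read on both arrays, 6 of them at least 2-fold lower, and a summed signal of 175 on the WT array against 45.7 on the KO-labelled array. Vascular markers had a median of -0.28, pigment epithelium markers 0.21 and markers of microglia and blood 0.29. Under median scaling these medians were -0.097, 0.39 and 0.47. The part of these tissues in the Cox6a2 difference was not tested. Mef2c, another MEF2 gene, differed by -1.28 ± 0.23.

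Complex V had a median of 0.0060 over 17 genes, with its F1 part and the rest of the enzyme on opposite sides of 0 by the main scaling. The 5 genes of F1, which is the catalytic head with the central stalk, had a median of -0.055, with 4 negative. The 12 genes of the membrane part and peripheral stalk had a median of 0.053, with 3 negative. This split was smaller than the error of a gene, which is not the error of a median, and was not tested. Atp5a1, the structural alpha subunit of the head, read 6.18 on both arrays. Atp5b, the catalytic beta subunit, read 7.65 on the WT array and 7.52 on the KO-labelled array (-0.12 ± 0.20). Atp5d, the delta subunit of the central stalk, read 4.03 and 3.92 (-0.11 ± 0.20). The central-stalk gamma subunit Atp5c1 differed by -0.055 at its brighter probe and by 0.11 at the other. Under median scaling the medians of both parts lay above 0, at 0.12 for F1 and 0.23 for the rest. Atp5b and Atp5c1 also lay above 0 there, at 0.054 and 0.12.

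The rotating c-ring is encoded by several genes for an identical mature protein. Atp5g1 read 6.17 on the WT array and 6.05 on the KO-labelled array (-0.12 ± 0.20), and Atp5g3 read 6.56 and 6.48 (-0.080 ± 0.20). The third gene, Atp5g2, differed by -0.042. All c-ring genes were thus slightly lower by the main scaling. Under median scaling all lay above 0, Atp5g1 at 0.053, Atp5g3 at 0.099 and Atp5g2 at 0.14. The largest positive difference of all members was that of Atp5mpl, and Atp5k also lay high. Atp5mpl, a small proteolipid that copurifies with the enzyme, read 5.91 and 6.18 (0.27 ± 0.20). Atp5k, the e subunit of the dimer interface, whose promoter is printed above, read 5.23 and 5.45 (0.21 ± 0.20), with 0.14 at its other probe. Atp5j, the coupling factor of the peripheral stalk, read 4.41 and 4.52 (0.10 ± 0.20), and Atp5j2, the f subunit, read 5.99 and 6.07 (0.079 ± 0.20). The probes of Atp5l, the g subunit, ran from -0.097 to 0.13, and those of Atp5h, a peripheral stalk subunit, from -0.0044 to 0.033.

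The probes of a gene bear on how small a difference can be read. Of the 22 genes with more than 1 probe read on both arrays, 7 had probes of opposite sign, and the median range between probes of a gene was 0.090. Cox7c alone had probes more than 1.3-fold apart, over a range of 0.45. None of the complex medians, from -0.020 to 0.079, exceeded this median range in size, though a range within a gene is not the error of a median.

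The sign of a small difference also depends on the scaling. Under scaling by the median, 2 members were negative in place of 33, and the median of all genes itself moved from -0.0060 to 0.17. The gap between the members' median and that of all genes was 0.042 under the main and the median scaling, 0.024 after quantile normalization, 0.027 after normexp and 0.013 after cyclic loess. Over 7 scalings, 44 members were positive in each and 2 negative in each. Median scaling by itself leaves 2 negative, so the second count could not be larger. Against the median of all genes, 54 of 87 members (62.1%) were above it by the main scaling, 49 after quantile normalization and 45 after cyclic loess.

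**Figure D4:**
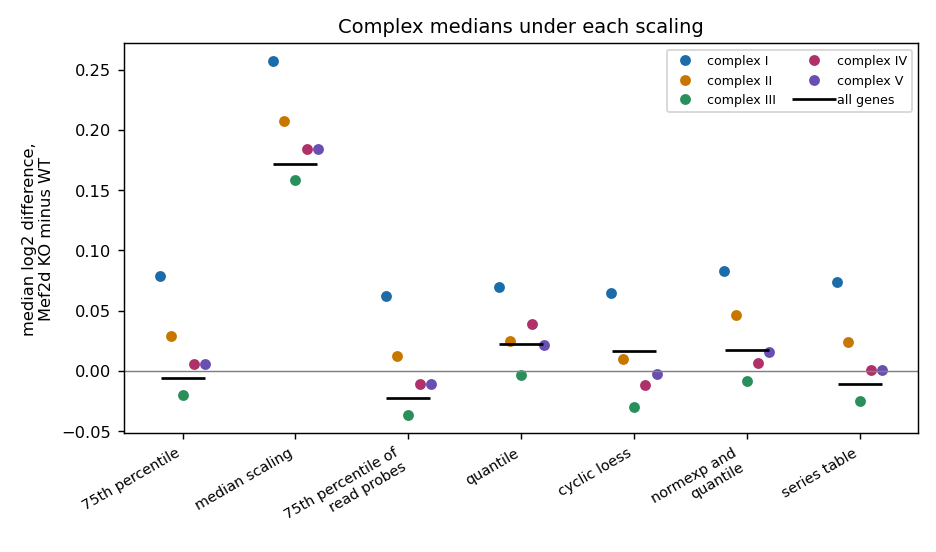
Median log2 difference, Mef2d KO minus WT, of the members of each complex and of all named genes under 7 scalings of the same arrays. All medians move up together under median scaling, where the median of all genes is 0.17, and complex I stays above all genes in each scaling. Only quantile normalization, cyclic loess and normexp could change the distance of a complex from all genes.

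Most other genes of the pathway also lay close to 0. The assembly factors of the complexes that were no members had a median of 0.016 over 42 genes read on both arrays, with none 1.3-fold apart. Atpaf1, another ATP synthase assembly factor, was well above background only on the WT array, with -5.05 and -5.78. The largest differences among those read on both arrays were those of Atpaf2, which helps to build the ATP synthase head (0.14 on the WT array, 0.37 on the KO-labelled array), Cox16 (3.13 and 3.33), Bcs1l, which inserts the Rieske protein (1.58 and 1.39), and Taco1, a translation activator for complex IV (-2.54 and -2.71). Electron carriers and related dehydrogenases had a median of 0.017 over 10 genes. Cyc1, cytochrome c1 of complex III, whose symbol the rule does not admit, read 4.94 and 4.84 (-0.098 ± 0.20), and Cycs, cytochrome c, read 4.68 on both arrays. Citric acid cycle genes had a median of -0.015 over 24, with 13 negative, and none was 1.3-fold apart.

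The regulators of mitochondrial biogenesis had a median of 0.063 over 24 genes, and 1 was at least 1.3-fold lower. That gene was Ppargc1a, the coactivator known to drive transcription of respiratory chain genes. It read 2.11 on the WT array and 1.27 on the KO-labelled array, a difference of -0.84 ± 0.20, or 1.79-fold lower. Another probe of the gene read -2.09 and -3.06 (-0.97 ± 0.21). The difference was -0.66 under median scaling and -0.87 after normexp, so it was lower under both. Its partners lay nearer to 0 or above. Ppargc1b, the related coactivator, read 1.36 and 1.69 (0.33 ± 0.20), and Sirt1, a deacetylase that acts on Ppargc1a, read 2.12 and 2.46 (0.34 ± 0.20). The transcription factor Nrf1 read 0.68 and 0.97 (0.29 ± 0.20), and Tfam, which maintains mitochondrial DNA, read 1.02 and 1.20 (0.17 ± 0.20). Esrra, an ERR receptor, read 2.65 and 2.55 (-0.10 ± 0.20). The genes printed above with NRF1 or ERR letters, chosen with their values known, differed by -0.027 (Cox6a1), 0.21 (Atp5k) and 0.079 (Ndufb4). Differences of the 10 members with NRF1 letters ran from -0.17 (Uqcrc1) to 0.21 (Atp5k). Those of the 8 with ERR letters ran from -0.080 (Atp5g3) to 0.21 (Atp5k). A link between these letters and the differences was not tested.

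**Figure D5:**
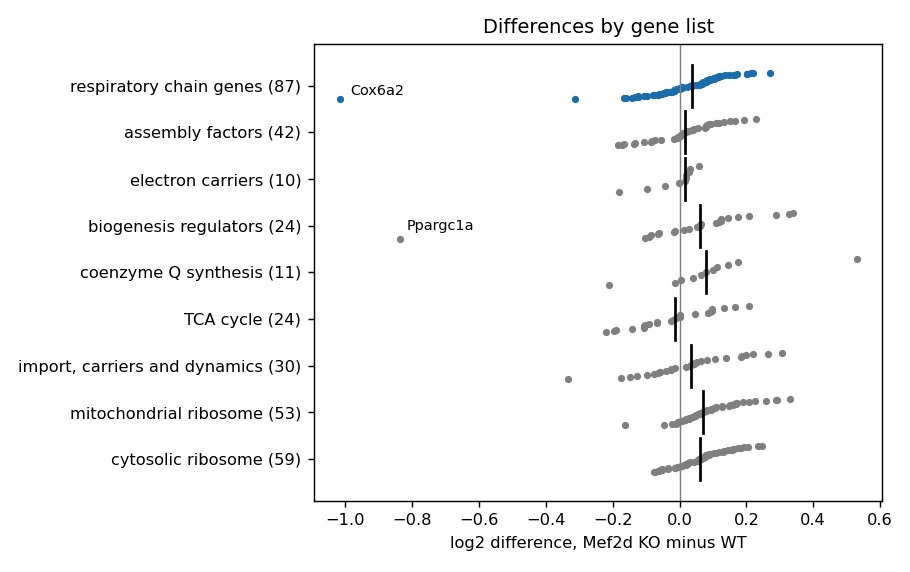
Log2 difference, Mef2d KO minus WT, of the genes of the respiratory chain set and of other mitochondrial and ribosomal lists (points) with the list medians (lines). The medians lie between -0.015 and 0.080, and single genes stand apart from their lists, such as Ppargc1a at -0.84 and Cox6a2 at -1.02.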

How the data were processed

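Total RNA of P14 retina was measured on 1 array for WT and 1 for Mef2d KO. The intensity values were deposited by the authors as scanner output of Agilent Feature Extraction 10.10.1.1, background-subtracted and not scaled between arrays, per the file headers. Both arrays were on the same slide and scan. Their deposited series table holds the same intensity values times 1 constant per array (1.88 and 1.76).

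Levels were taken on the log2 scale after dividing the processed signal by its 75th percentile on that array (807 and 858) over 59305 probe spots. Control and outlier spots (106 and 126) were left out. Of 55669 probes, 27231 were named by RefSeq accession (GRCm38.p6), and the brightest probe stood for each gene. "Well above background" is the scanner software's flag. No test was possible with 1 array a group. Computation used Python 3.11.15 (numpy 2.4.6, pandas 2.3.3), R 4.3.3 and limma 3.58.1 for quantile, cyclic loess and normexp (offset 50) alternatives, and was tested on simulated data. Other scalings, filters on level, mean over probes and structural subunits alone were also tried.

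Values are given for the 4 lowest and 4 highest differences of each complex, core subunits (1 of which is not reported here), tissue isoforms, members past 2-fold or read on 1 array, and the largest differences of other lists. Ndufa4, Ndufa1, Ndufb11, Ndufb4, Cox6a1, Atp5g2, Atp5c1, Atp5l, Atp5h, Tnnt1, Tnni1 and Mef2c fall outside this rule and were chosen with their values seen. Members and lists were chosen with earlier results of these data known. No mitochondrially encoded gene was matched by accession, and these were not analysed here.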

Additional observations from a re-analysis of the deposited data

How the results depend on the processing

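Scaling by the array median moved every value upward by 1 constant. The members' median became 0.21, and those of complexes I to V 0.26, 0.21, 0.16, 0.18 and 0.18. Under it 2 members were negative, 5 were at least 1.3-fold higher and 0 at least 2-fold lower. The median of all genes moved to 0.17, so the gap to all genes kept its size there, and its smaller values under other scalings are given above. The count of members at least 2-fold lower was also 0 after quantile normalization, cyclic loess and normexp, where Cox6a2 stayed below 0. Filters at a mean level of 0 and of 2 remove Cox6a2, which left 0 members past 1.3-fold and 0 past 2-fold on the lower side. The filter at 2 was added after the data were seen. The 2-fold split of all genes also moved, from 281 lower and 100 higher to 170 and 151 after median scaling, 164 and 156 after quantile normalization, 162 and 154 after cyclic loess and 95 and 63 after normexp. With genes above background on 1 array or more it was 887 and 127. That setting, the series table, the 75th percentile over probes above background, the mean over a gene's probes and structural subunits alone left the members' counts of 1.3-fold and 2-fold differences as they were. The mean over probes moved Ndufb11 to -0.052, Atp5c1 to 0.025, Cox7c to 0.0016 and Sdhb to 0.10. With 1 array a group no replicate could be left out. No paired analysis was possible because each group has 1 array. Dim probes such as that of Cox6a2 limit what can be read.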

Other observations

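The 53 genes of the mitochondrial ribosome, which translates the chain's mitochondrially encoded subunits, had a median difference of 0.071, with 8 negative, and the 59 genes of the cytosolic ribosome a median of 0.060, with 13 negative. None of either list was 1.3-fold apart. Coenzyme Q synthesis genes had a median of 0.080 over 11, and Coq8b, an atypical kinase of that pathway, read 1.02 on the WT array and 1.55 on the KO-labelled array (0.53 ± 0.20), the only gene of that list past 1.3-fold. Among genes of mitochondrial import, carriers and dynamics the median was 0.034 over 30. Tomm20, a receptor of the outer membrane import pore, had the lowest difference, with 4.30 and 3.97 (-0.33 ± 0.20), and Slc25a13, the aspartate-glutamate carrier, the highest, with -1.55 and -1.24 (0.31 ± 0.21).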
